A study of Mus musculus with 24 samples.

Results

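The E proteins and their Id inhibitors were followed through all 8 groups of the QuantSeq data. The members were the 6 genes *Tcf3*, *Tcf4*, *Tcf12*, *Id1*, *Id2* and *Id3*, taken as the rows of the expression tables whose gene symbol equals one of these names. They are 6 of the 55487 genes listed. All samples were Cas9-LPs, lymphoid progenitor (LP) lines made from fetal liver of *Ebf1*-deficient mice that also carry the Rosa26-Cas9 knock-in, so every group, control included, shared the loss of *Ebf1* and the presence of Cas9. The cells were grown with SCF, Flt3L and IL-7 on mitomycin C-treated OP9 stroma, received sgRNAs on an hNGFR retrovirus (vectors for 3 sgRNAs pooled for each target gene, luciferase sgRNAs for sgControl), and were sorted as hNGFR+CD45+ cells 5 days later. The first experiment compared LPs on OP9 with Phase 1 cells on OP9-DLL4, which gives a Notch ligand and, per the study, 2 days of Notch stimulation, each with sgControl or sgCbfb. The second compared LPs with sgControl, sgCbfb, sgCTCF or sgMed12. Each group had 3 libraries, 24 in all, which the methods call biological replicates.

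E proteins are basic helix-loop-helix transcription factors that bind DNA as dimers at E-boxes, the hexamer CANNTG. In lymphoid progenitors they activate genes for antigen receptor rearrangement, for lymphoid signaling receptors and for both the B and the T lineage. *Tcf3* encodes E2A, *Tcf12* encodes HEB and *Tcf4* encodes E2-2, which is best known for its part in plasmacytoid dendritic cells. The name *Tcf4* is used here for this E protein and not for the TCF/LEF factor sometimes given the same name. Id proteins have the helix-loop-helix part but no basic region, so an E protein held by an Id protein cannot bind DNA. *Id2* is known for the innate lymphoid lineages, *Id3* for the response to receptor signals in thymocytes, and *Id1* for progenitor and myeloid cells and for its response to BMP and SMAD signaling.

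In GENCODE M21 on GRCm38, *Tcf3* lies at chr10:80409514-80433647 on the minus strand, *Tcf12* at chr9:71842688-72111871 on the minus strand, *Id1* at chr2:152736251-152737410 on the plus strand, *Id2* at chr12:25093799-25097140 on the minus strand and *Id3* at chr4:136143497-136145755 on the plus strand. No position is given here for *Tcf4*. No exon of another annotated gene overlapped an exon of any of the 6 genes on either strand. QuantSeq makes 1 read from the 3′ end of a transcript, so splice forms of *Tcf3*, *Tcf4* or *Tcf12* that share a 3′ end were counted together, and no value is that of 1 isoform.

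Promoter sequence is shown for *Tcf3*, *Tcf12* and *Id2* because E-boxes, the sites that E proteins bind, stand before starts of these members, with the same letters, CAGCTG, before one start of *Tcf12* and that of *Id2*. The RefSeq promoter table (GRCm38.p6) held windows of the 250 bases before 1 start of *Tcf3*, 3 starts of *Tcf12*, 1 of *Id2* and 1 of *Id3*. The window of *Id2*, chr12:25096093-25096342, and that of *Id3* lie inside the span of the gene in GENCODE M21, as do some of *Tcf12*. These stand before an inner start and not before the outermost 5′ end of the gene. CANNTG was present in the windows of *Tcf3* and *Id2* and in 2 of the 3 of *Tcf12*, and not in that of *Id3*. The stretches that hold it and lie outside annotated exons are shown, 5′ to 3′ on the minus strand of each gene, with the E-box in capitals: chr10:80433648-80433729 for *Tcf3*, chr9:72111305-72111390 for one start of *Tcf12* and chr9:72112014-72112069 for another, and chr12:25096254-25096328 for *Id2*.
Tcf3: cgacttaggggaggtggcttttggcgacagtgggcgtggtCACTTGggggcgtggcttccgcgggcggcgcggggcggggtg
Tcf12, one start: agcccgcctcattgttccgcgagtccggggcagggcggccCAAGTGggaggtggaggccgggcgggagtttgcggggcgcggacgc
Tcf12, another start: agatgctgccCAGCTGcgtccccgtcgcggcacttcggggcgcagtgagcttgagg
Id2: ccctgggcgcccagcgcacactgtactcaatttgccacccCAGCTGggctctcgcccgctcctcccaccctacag
CANNTG is common, with a match on either strand in 66.2% of the 32851 promoter windows of the table, and CAGCTG was in 13.001%, which is counted within CANNTG. The first base of the E-box stood 54 bases before the start for *Tcf3*, 149 and 240 for *Tcf12*, and 196 for *Id2*. The RUNX motifs TGTGGT (in 14.0% of windows) and TGCGGT (5.10%), the RBPJ motif TGGGAA (21.6%) and the core CTCF motif (2.27%), each searched on both strands, matched none of these windows. GGCGCC, known as a BMP-responsive element and present in 9.59% of windows, matched that of *Id2*, 231 bases before the start. These matches describe letters in a short window and not bound sites.

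The values are CPM, the reads on a gene scaled to the same total of gene reads in every library. A library held 1363263 to 1743319 such reads in experiment 1 (the first) and 3354483 to 4326782 in experiment 2, so that 3 reads, taken as the floor, are 1.72 to 2.20 CPM and 0.693 to 0.894 CPM. The 24 libraries expressed *Ptprc* (CD45), *Kit*, *Flt3*, *Il7r* and *Cd44*, and their sum per library was 774 to 1528 CPM. *Cbfb* was 40.2 ± 5.18 CPM in sgCbfb against 86.5 ± 9.30 CPM in sgControl LPs of the first experiment (SD, n = 3; adjusted P = 0.00548) and 48.4 ± 6.93 against 114 ± 8.37 CPM in the second (adjusted P = 4.34e-06), but in Phase 1 cells it was 53.9 ± 9.69 against 66.5 ± 19.2 CPM (adjusted P = 0.591). *Ctcf* fell to 306 ± 29.96 CPM in sgCTCF from 391 ± 30.7 CPM in sgControl LPs (adjusted P = 0.0210). *Med12* was 7.01 ± 3.38 CPM in sgMed12 and 5.14 ± 1.26 CPM in sgControl LPs (adjusted P = 0.663). A 3′ end still gives a read when a short deletion lies elsewhere in the transcript, so these levels are a weak check of the labels, and that of *Med12* checks nothing. Reads of *Ebf1*, the gene the lines lack, stood between 143 and 403 CPM, so 3′ ends of that locus were still counted.

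All 6 members passed the filter on low values in both experiments (at least 1 CPM in at least 3 libraries), and their fold changes are limma estimates on log2(CPM + 1) with standard errors (SE) and P values adjusted by Benjamini-Hochberg over all genes tested. One read stands for one transcript end whatever the length of the transcript, so levels of different genes are set side by side on this 3′-end scale. *Id2* was the Id gene with most reads in every library, at 81.2 to 304 CPM, and *Tcf4* and *Tcf12* had more reads than *Tcf3* in nearly all of them. *Id1* and *Id3* stood at a few CPM or below in sgControl LPs of both experiments.

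**Figure D1:**
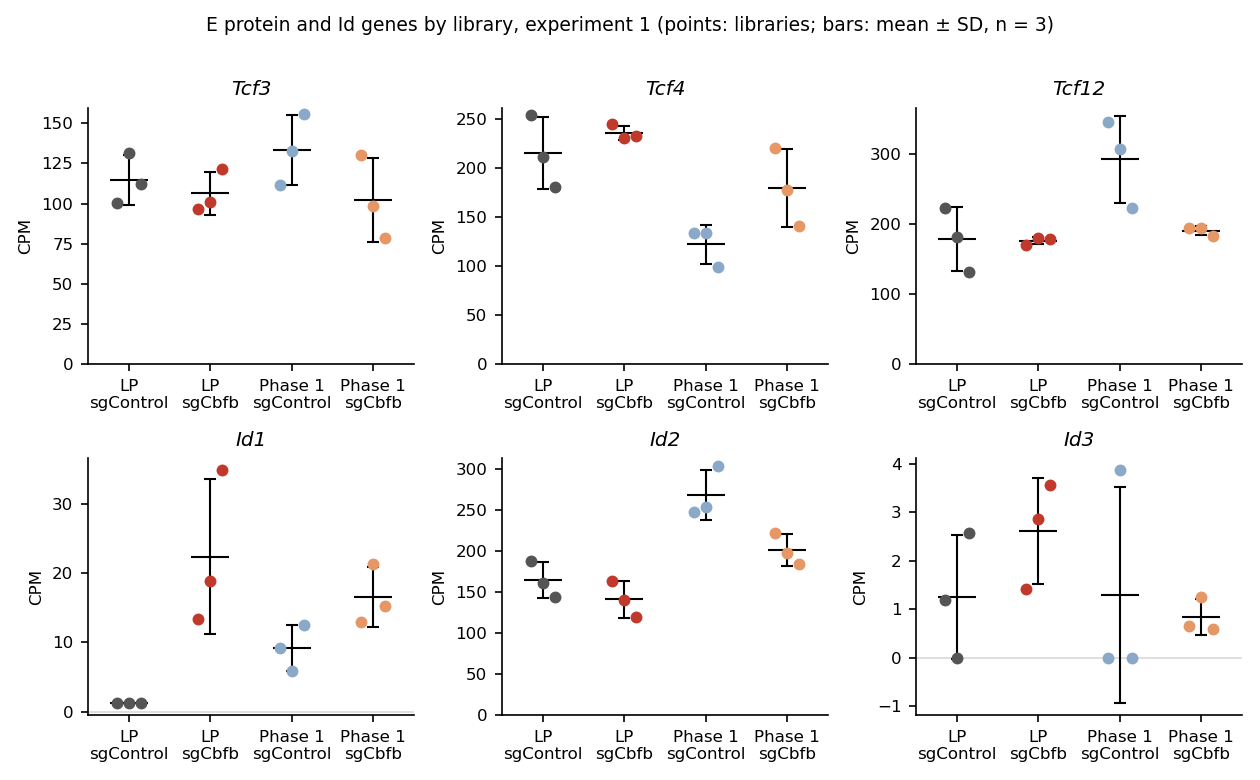
Values of the 6 genes in the first experiment, in CPM on linear axes, with points for the 3 libraries of a group and bars for the mean ± SD. The 3 Phase 1 sgControl libraries lie above the 3 LP sgControl libraries for *Tcf12*, *Id1* and *Id2* and below them for *Tcf4*, while *Id1* is lowest in LP sgControl, at 1.18 to 1.28 CPM.

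Notch stimulation changed 4 of the 6 genes in sgControl cells, where 6.48% of the 13239 genes tested passed the threshold of an adjusted P under 0.05. The inhibitor genes *Id2* and *Id1* and the E protein gene *Tcf12* rose, and *Tcf4* fell. *Id2* was 188, 162 and 145 CPM in the LP libraries and 247, 254 and 304 CPM in the Phase 1 libraries. The lowest Phase 1 library thus stood above the highest LP library, and the log2 fold change was 0.70 (SE 0.15, adjusted P = 0.00379). *Tcf12*, the gene of HEB, read 223, 181 and 132 CPM in LPs and 346, 307 and 224 CPM in Phase 1 cells, a log2 fold change of 0.71 (SE 0.17, adjusted P = 0.0109). The groups met at 224 and 223 CPM, and without LP sgControl replicate 3 the adjusted P was 0.0854. *Tcf4* went the other way, from 253, 211 and 180.5 CPM to 133, 134 and 99.0 CPM, a log2 fold change of -0.81 (SE 0.17, adjusted P = 0.00333). *Id1* had 2 reads in each LP sgControl library, 1.18 to 1.28 CPM, and 9.18, 5.81 and 12.5 CPM in Phase 1 libraries. Its 6 reads against 39 gave a ratio of 7.30, with an exact 95% interval for counting error of 3.07 to 21.1, and limma gave an adjusted P of 0.00478. *Tcf3* was 115 ± 15.6 CPM in LPs and 133 ± 21.996 CPM in Phase 1 cells, which overlapped (log2 fold change 0.21, 95% interval -0.17 to 0.60). *Id3* had 0 to 4 reads per library in LPs and 0 to 6 in Phase 1 cells, too few for a fold change to be read. In a fit of the sgControl libraries alone *Tcf4* and *Tcf12* no longer passed (adjusted P = 0.0585 and 0.171).

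The same change of stroma in sgCbfb cells passed the threshold for 0 of the 6 genes, beside 2.24% of all genes. An unadjusted P under 0.05 was found for 2 of them, *Id2* (adjusted P = 0.0754) and *Tcf4* (adjusted P = 0.285), while DESeq2 called 1, *Id2* (adjusted P = 0.0439), and edgeR 0. *Id2* was 164, 141 and 119 CPM in sgCbfb LPs and 222, 198 and 184 CPM in sgCbfb Phase 1 cells, without overlap, and its log2 fold change was 0.52 (SE 0.15), with an adjusted P of 0.00979 without Phase 1 sgControl replicate 3. *Tcf12* was 177 ± 5.18 and 191 ± 6.39 CPM, a log2 fold change of 0.11 with a 95% interval of -0.24 to 0.46. *Tcf4* was 236 ± 7.25 CPM in LPs and 179 ± 39.8 CPM in Phase 1 cells. Whether the Notch response differed between sgControl and sgCbfb cells was tested as an interaction, in which 0 of the 6 members and 1.27% of all genes passed, with 2 members, *Id1* and *Tcf12*, at an unadjusted value under 0.05. The estimate was -2.47 for *Id1* (SE 0.65, adjusted P = 0.0679), and edgeR and DESeq2 on the recovered reads gave adjusted P values of 0.0126 and 0.0144, as limma gave 0.0484 without Phase 1 sgControl replicate 2. For *Tcf12* it was -0.61 (SE 0.24, adjusted P = 0.340), which became -0.79 with an adjusted P of 0.0170 without Phase 1 sgControl replicate 3. A different response of *Tcf12* or *Id2* to Notch stimulation in sgCbfb cells was therefore not shown at this depth.

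Disruption of *Cbfb*, the gene of the shared partner subunit of RUNX factors, raised *Id1* in LPs of both experiments. In the first it was 1 of the 6 members past the threshold, beside 2.85% of all genes, and in the second 3 of the 6 passed, *Id1*, *Id3* and *Tcf4*, all higher, beside 12.5% of the 13177 genes tested. *Id1* was 13.4, 18.9 and 35.0 CPM in the sgCbfb LPs of the first experiment, all far above the 2 reads of each sgControl library. The pooled 101 reads against 6 gave a ratio of 17.95 with an exact 95% counting interval of 7.97 to 50.1, and the limma log2 fold change was 3.29 (SE 0.46, adjusted P = 9.75e-05). In the second experiment *Id1* was 2.90, 1.77 and 4.38 CPM in sgControl LPs and 40.2, 60.1 and 51.9 CPM in sgCbfb LPs, a 16.8-fold higher mean with a log2 fold change of 3.72 (SE 0.28, adjusted P = 2.79e-10). The sgCbfb libraries of the first experiment spread more widely around their mean (22.4 ± 11.2 CPM) than those of the second (50.7 ± 9.96 CPM). Of all calls on members, *Id1* in these LPs was one that stayed past the threshold under every alternative run, those without one library included.

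*Id3* was measurable in LPs of the deeper second experiment. It was 1.05, 1.48 and 1.95 CPM in sgControl LPs (4 to 8 reads) and 11.03, 6.70 and 8.82 CPM in sgCbfb LPs (25 to 37 reads). Each sgCbfb library was above each sgControl library, with a log2 fold change of 1.97 (SE 0.32, adjusted P = 6.70e-05). In the first experiment, at a lower depth, *Id3* had 0 to 4 reads in sgControl and 2 to 5 reads in sgCbfb LPs, and a change was not detectable (log2 fold change 0.82, 95% interval -0.52 to 2.16).

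The E protein genes moved little in sgCbfb LPs. *Tcf4* was 195, 222 and 166 CPM in sgControl and 279.6, 278 and 218 CPM in sgCbfb LPs of the second experiment, a log2 fold change of 0.41 (SE 0.12, adjusted P = 0.0216). The groups overlapped by one library, and the adjusted P was 0.0624 to 0.168 when sgControl replicate 1 or 3 or sgCbfb replicate 1 or 2 was left out, and 0.0557 without the filter on low values. In the first experiment *Tcf4* was 215 ± 36.5 and 236 ± 7.25 CPM (adjusted P = 0.847). *Tcf3* was 132 ± 7.07 CPM in sgControl and 109.7 ± 15.2 CPM in sgCbfb LPs of the second experiment (log2 fold change -0.27, 95% interval -0.51 to -0.04, adjusted P = 0.125, and 0.0398 without sgCbfb replicate 1). *Tcf12* differed by 0.01 (95% interval -0.34 to 0.37) in the first and -0.11 (-0.32 to 0.09) in the second experiment on the log2 scale. For *Id2*, the member with most reads among the inhibitors, the sgCbfb value was the lower one in both, 141 ± 22.2 against 165 ± 21.7 CPM and 127 ± 3.74 against 159.8 ± 21.2 CPM, and neither passed (adjusted P = 0.647 and 0.102), although in the second experiment the libraries did not overlap and the adjusted P was 0.0225 without sgMed12 replicate 2 and 0.0494 in a fit of these groups alone.

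In Phase 1 cells, sgCbfb left 1 of the 6 genes past the threshold, *Tcf12*, beside 5.97% of all genes. *Tcf12* was 195, 194 and 183 CPM in sgCbfb and 346, 307 and 224 CPM in sgControl Phase 1 cells, and so all sgCbfb libraries were lower (log2 fold change -0.59, SE 0.17, adjusted P = 0.0398). The call was close to the threshold and was lost without any one of 9 of the 12 libraries of the experiment, with adjusted P values up to 0.148, namely each sgCbfb library of either stage, LP sgControl replicate 2 and Phase 1 sgControl replicates 1 and 2. *Tcf4* was 220.4, 177 and 141 CPM in sgCbfb and 133, 134 and 99.0 CPM in sgControl Phase 1 cells, again without overlap, with a log2 fold change of 0.54 (SE 0.17) and an adjusted P of 0.0608 in limma and 0.0489 in edgeR. Without Phase 1 sgControl replicate 1 or sgCbfb replicate 3 the limma value for *Tcf4* was 0.0471 or 0.0235. *Id2* was 222, 198 and 184 CPM against 247, 254 and 304 CPM, a log2 fold change of -0.41 (SE 0.15) with an adjusted P of 0.118 in limma and 0.0471 in DESeq2. *Id1*, at 12.97, 21.4 and 15.3 CPM against 9.18, 5.81 and 12.5 CPM, did not overlap either, and its log2 fold change was 0.82 (95% interval -0.13 to 1.77, adjusted P = 0.374). *Tcf3* was 102 ± 26.2 and 133 ± 21.996 CPM with overlap (adjusted P = 0.268).

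**Figure D2:**
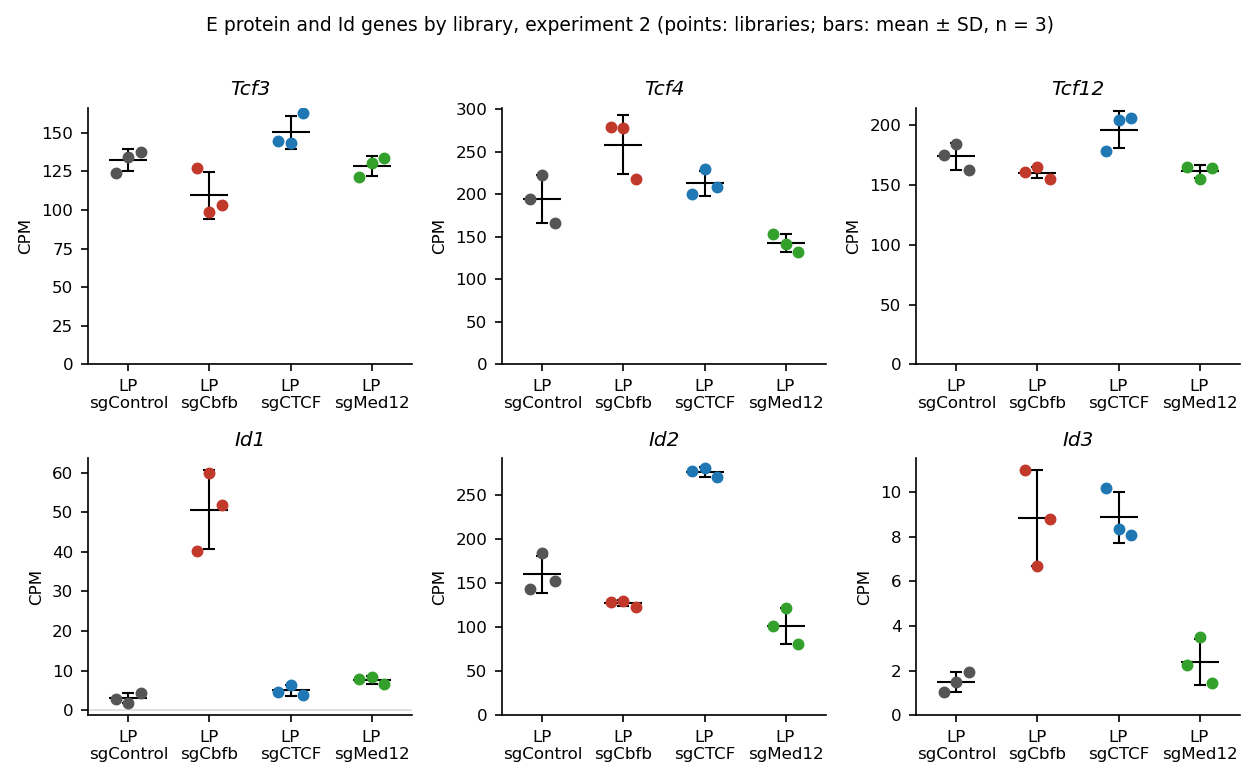
Values of the 6 genes in LPs of the second experiment, in CPM on linear axes, with points for the 3 libraries of a group and bars for the mean ± SD. *Id1* is highest in sgCbfb, *Id2* is high in sgCTCF and low in sgMed12, and *Id3* is about equally high in sgCbfb and sgCTCF.

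In LPs with sgCTCF, which targets the gene of the insulator protein CTCF, 2 of the 6 genes passed, beside 10.3% of all genes, and both were inhibitors that rose. *Id2* was 278, 281 and 270.4 CPM in sgCTCF and 143, 184 and 152 CPM in sgControl LPs. The sgCTCF libraries lay close together (276 ± 5.33 CPM) and well above the sgControl libraries, with a mean 1.73-fold higher and a log2 fold change of 0.79 (SE 0.12, adjusted P = 9.59e-05). *Id3* was 10.2, 8.35 and 8.09 CPM in sgCTCF, 5.95-fold above the sgControl mean of 1.49 CPM, with a log2 fold change of 1.996 (SE 0.32, adjusted P = 0.000133). Both calls stood under all alternatives run. *Id1* was 4.56, 6.40 and 3.93 CPM, which overlapped sgControl (log2 fold change 0.60, 95% interval 0.02 to 1.18, adjusted P = 0.201). The E protein genes read 150.2 ± 10.8 CPM for *Tcf3*, 213 ± 15.2 CPM for *Tcf4* and 196 ± 15.4 CPM for *Tcf12*, with adjusted P values of 0.363, 0.557 and 0.326 against sgControl.

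In LPs with sgMed12, which targets the gene of a Mediator subunit, 3 of the 6 genes passed, beside 7.22% of all genes, with *Id2* and *Tcf4* lower and *Id1* higher. *Id2* was 101, 121 and 81.2 CPM, and every one of these was below the lowest sgControl library (log2 fold change -0.66, SE 0.12, adjusted P = 0.00286). *Tcf4* was 154, 142 and 132 CPM, also below every sgControl library (log2 fold change -0.44, SE 0.12, adjusted P = 0.0275). *Id1* was 7.91, 8.43 and 6.53 CPM, above every sgControl library by a mean ratio of 2.53 (log2 fold change 1.15, SE 0.28, adjusted P = 0.0174). Mitochondrial genes took 8.44% to 13.7% of the reads of the sgMed12 libraries and 6.76% to 8.15% of the other libraries of the experiment. With mitochondrial genes and *CT010467.1*, the gene with most reads, left out of the total, *Tcf4* no longer passed (log2 fold change -0.33, adjusted P = 0.0983), while *Id2* and *Id1* did. In a fit of sgMed12 and sgControl libraries alone none of the 3 passed, with adjusted P values of 0.115 to 0.151, and without sgControl replicate 2 *Tcf4* (adjusted P = 0.147) and *Id1* (adjusted P = 0.0914) were lost. The call of *Tcf4* was also lost without sgControl replicate 1 or sgMed12 replicate 3 (adjusted P = 0.0857 and 0.134), and that of *Id1* without sgMed12 replicate 1 (adjusted P = 0.0587). *Id3* was 2.39 ± 1.04 CPM, and *Tcf3* and *Tcf12* were 129 ± 6.32 and 161 ± 5.18 CPM, none past the threshold (adjusted P = 0.468, 0.879 and 0.568).

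These comparisons of the second experiment share the same 3 sgControl libraries, so the 3 targets were also set against each other directly. Between sgCTCF and sgCbfb LPs, 4 of the 6 genes passed, beside 22.3% of all genes. *Id1* was 10.2-fold higher in sgCbfb (log2 fold change -3.12 for sgCTCF over sgCbfb, SE 0.28, adjusted P = 4.60e-09), and *Id2* was 2.17-fold higher in sgCTCF (1.11, SE 0.12, adjusted P = 1.66e-07). *Tcf3* was also higher in sgCTCF, at 145, 143 and 163 CPM against 127, 98.7 and 103 CPM (log2 fold change 0.46, SE 0.11, adjusted P = 0.00372), and so was *Tcf12* (0.29, SE 0.10, adjusted P = 0.0402), a call that 6 of the 12 libraries could end when left out, with adjusted P values of 0.0544 to 0.154 (sgControl replicate 1, each sgCbfb replicate, and sgCTCF replicates 2 and 3). *Tcf4* did not pass (adjusted P = 0.107), but did without sgCbfb replicate 3 (adjusted P = 0.0344) and in a fit of these groups alone (adjusted P = 0.0375). *Id3* differed by 0.02 on the log2 scale with a 95% interval of -0.64 to 0.68.

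Between sgMed12 and sgCTCF LPs, 3 of the 6 genes passed, beside 20.0% of all genes, and all were lower in sgMed12. They were *Id2* (log2 fold change -1.46, SE 0.12, adjusted P = 1.20e-08), *Id3* (-1.58, SE 0.32, adjusted P = 0.00109) and *Tcf4* (-0.58, SE 0.12, adjusted P = 0.00126). Between sgMed12 and sgCbfb LPs, 3 of the 6 passed, beside 16.8% of all genes, again all lower in sgMed12, namely *Id1* (-2.57, SE 0.28, adjusted P = 2.18e-07), *Id3* (-1.56, SE 0.32, adjusted P = 0.000991) and *Tcf4* (-0.85, SE 0.12, adjusted P = 8.52e-06). Near the threshold were *Tcf12* in sgMed12 against sgCTCF (adjusted P = 0.0513, and 0.0452 without sgCTCF replicate 1) and *Id2* in sgMed12 against sgCbfb (adjusted P = 0.0577, and 0.00115 without sgMed12 replicate 2). Against sgControl, the inhibitor genes past the threshold were thus *Id1* and *Id3*, both higher, in sgCbfb LPs of the second experiment, *Id2* and *Id3*, both higher, in sgCTCF LPs, and a higher *Id1* with a lower *Id2* in sgMed12 LPs. Beyond the test, *Id1* in LP sgCbfb of both experiments was the member whose change against sgControl also met the study's own limits of an absolute log2 fold change over 1 and a value over 10 CPM, since *Id3* reached 8.88 CPM at most as a group mean and the changes of *Id2* and *Tcf4* were smaller.

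**Figure D3:**
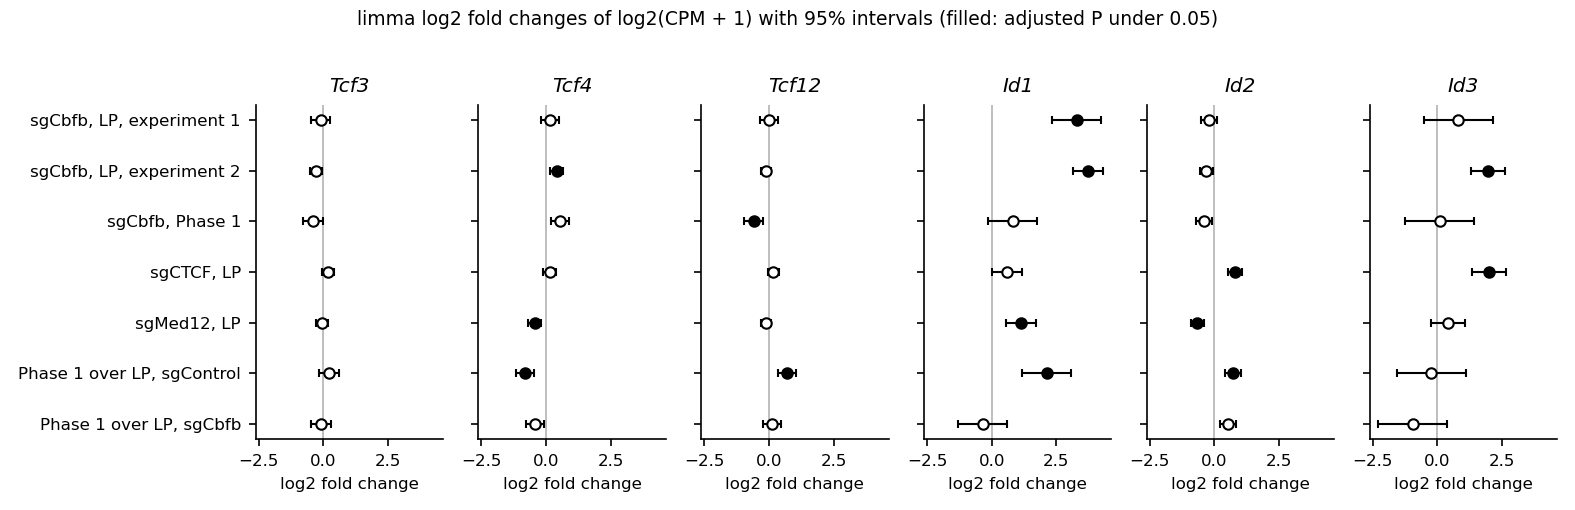
Log2 fold changes of the 6 genes from limma on log2(CPM + 1), with 95% intervals, for 7 comparisons of 3 against 3 libraries. Filled points are past an adjusted P of 0.05, and the intervals of *Id1* in sgCbfb LPs, 2.33 to 4.24 and 3.14 to 4.30, lie farthest from 0.

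Ordered by level, *Tcf3* had the narrowest range of group means in the first experiment (1.30-fold) and *Tcf12* in the second (1.22-fold). The means of *Tcf3* ran from 102 (Phase 1 sgCbfb) over 106 (LP sgCbfb) and 115 (LP sgControl) to 133 CPM (Phase 1 sgControl) in the first experiment, where all neighbours overlapped, and from 109.7 (sgCbfb) over 129 (sgMed12) and 132 (sgControl) to 150.2 CPM (sgCTCF) in the second. *Tcf4* ran from 122 CPM in Phase 1 sgControl to 236 CPM in LP sgCbfb, a ratio of 1.93, and from 143 CPM in sgMed12 to 259 CPM in sgCbfb LPs, a ratio of 1.81. LPs of sgControl and sgCTCF, at 195 and 213 CPM, were neighbours in that order whose libraries overlapped. *Tcf12* was set apart by one group, Phase 1 sgControl at 292 ± 62.4 CPM, while the other 7 group means were between 160.1 and 196 CPM. *Id1* ranged 16.8-fold between the groups of the second experiment, *Id3* 5.95-fold and *Id2* 2.73-fold, which are wider ranges than the 1.22-fold to 1.81-fold of the E protein genes. The ranges of *Id1* and *Id3* start from low sgControl means of 3.02 CPM (6 to 18 reads) and 1.49 CPM (4 to 8 reads). In the first experiment the range of *Id2* was not the wider one, at 1.90-fold beside 1.93-fold for *Tcf4*.

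The make-up of each family shifted with these changes. In LP sgControl libraries of the first experiment *Tcf4* gave 40.3% to 44.0% of the summed E protein reads and *Tcf12* 31.1% to 38.6%, and in Phase 1 sgControl libraries *Tcf4* gave 20.7% to 23.4% and *Tcf12* 46.8% to 58.5%. *Tcf12* thus took the place of *Tcf4* as the E protein gene with most reads. Phase 1 sgCbfb libraries lay between in their means, with 35.0% to 40.4% from *Tcf4* and 35.7% to 45.5% from *Tcf12*. Of the summed Id reads, *Id2* gave 96.01% to 99.2% in all sgControl libraries, but 75.6% to 91.7% in sgCbfb LPs of the first experiment, where *Id1* gave 7.51% to 22.2%. In those of the second *Id2* gave 66.1% to 71.5% and *Id1* gave 22.4% to 30.5%. The summed E protein reads stayed within 403 to 591 CPM over all libraries. In the second experiment these sums were 427 to 440 CPM in sgMed12 LPs and 466 to 577 CPM in the other libraries, without overlap. The sgMed12 libraries also held the larger shares of mitochondrial reads given above, and the sums were not rescaled for this. The summed Id reads were 148 to 190 CPM in LP sgControl and 256 to 316 CPM in Phase 1 sgControl libraries of the first experiment. They were 147 to 187 CPM in sgControl, 282 to 295 CPM in sgCTCF and 89.1 to 133 CPM in sgMed12 LPs of the second. Per E protein read there were 0.330 ± 0.019 Id reads in LP sgControl and 0.518 ± 0.124 in Phase 1 sgControl cells of the first experiment, and 0.520 ± 0.036 in sgCTCF, 0.355 ± 0.035 in sgCbfb, 0.328 ± 0.027 in sgControl and 0.257 ± 0.053 in sgMed12 LPs of the second experiment (SD, n = 3). These are sums of transcript ends and not of proteins, and they were given no test.

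**Figure D4:**
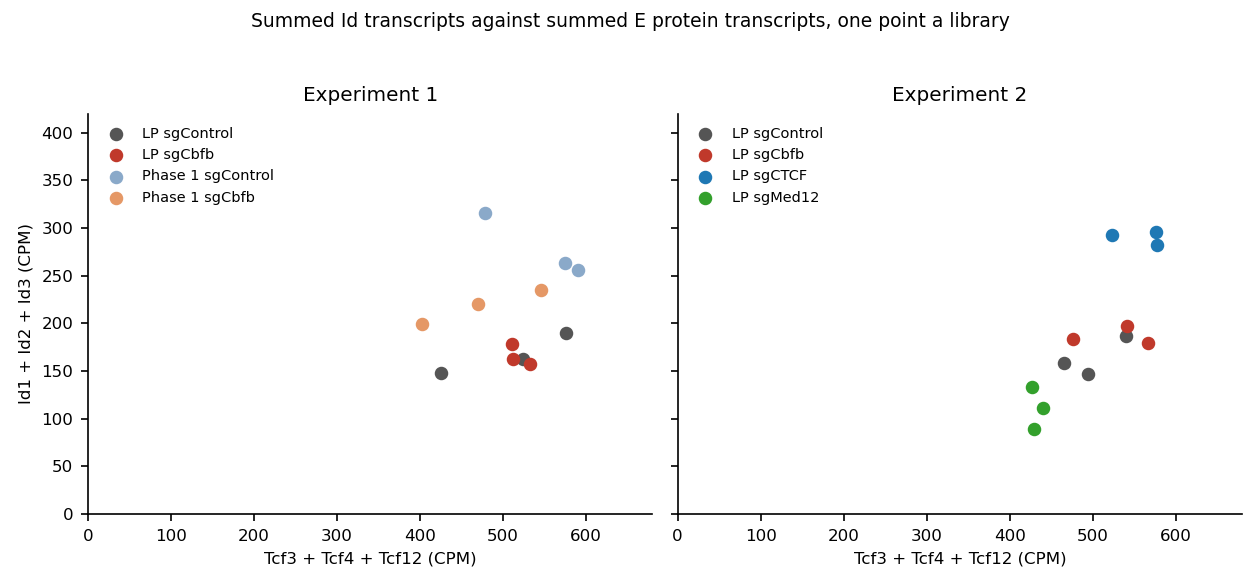
Summed CPM of *Id1*, *Id2* and *Id3* against that of *Tcf3*, *Tcf4* and *Tcf12*, one point for each library, with both axes linear from 0. The Phase 1 sgControl and the sgCTCF libraries are highest, at 256 to 316 and 282 to 295 CPM of Id reads, and the sgMed12 libraries lowest, while the E protein sums of most groups overlap.

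Over the 24 libraries, with each gene centred within its experiment, *Tcf12* and *Id2* had the highest correlation among the members (Pearson r = 0.61), and *Tcf4* ran with *Id3* (0.48) and against *Tcf12* (-0.30). The genes most like each member among 8612 genes over 10 CPM, by the same measure, were *Ptpre*, *Ccdc180* and *Ifi203* for *Id1* (r = 0.93, 0.92 and 0.91), *Phf21a*, *Stim1* and *Txnip* for *Tcf4* (0.90, 0.90 and 0.89), and *Aak1*, *Tacc1* and *Cbl* for *Tcf12* (0.88, 0.80 and 0.80). For *Id2* they were *Arl4c*, *Rab8a* and *B4galt1* (0.85, 0.85 and 0.84), and for *Tcf3* and *Id3* the highest r was 0.80 (*Nelfe*) and 0.77 (*Slfn5*). The libraries of a group share their treatment, so these values describe likeness of pattern over 8 groups and carry no P value.

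Of 15 partner genes of the E proteins, namely genes for other bHLH factors, LMO and LDB adaptors and ETO corepressors, 10 were tested, and limma called 0 in sgCbfb LPs of experiment 1 (3 at an unadjusted value under 0.05, beside 2.85% of all genes past the adjusted threshold) and 0 in sgMed12 LPs (0 unadjusted, beside 7.22%). In Phase 1 cells with sgCbfb, beside 5.97% of all genes, 1 rose, *Lmo2*, an adaptor of bHLH complexes (15.5 against 3.32 CPM, log2 fold change 2.21, adjusted P = 0.0101), and 1 fell, *Cbfa2t3*, the gene of the ETO2 corepressor (159.0 against 280.2 CPM, -0.81, adjusted P = 0.000692). *Cbfa2t3* also rose with Notch stimulation in sgControl cells (0.48, adjusted P = 0.0454) and its interaction passed (-0.85, adjusted P = 0.0361). In sgCbfb LPs of the second experiment, beside 12.5% of all genes, 2 of the 10 passed and 7 had an unadjusted value under 0.05. *Lmo2* rose (29.4 against 13.4 CPM, 1.09, adjusted P = 0.00104) and the adaptor gene *Lmo4* fell (83.5 against 131 CPM, -0.64, adjusted P = 0.000427). In sgCTCF LPs 2 fell, beside 10.3% of all genes, *Lmo4* among them (97.2 CPM, -0.43, adjusted P = 0.0221).

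Genes known to be activated by E proteins did not move one way. Of 20 listed, 18 were tested in the first and 17 in the second experiment. In sgCbfb LPs 6 rose and 2 fell in the first experiment (median log2 fold change 0.25, beside 0 over all genes, of which 2.85% passed). In the second 8 rose and 6 fell (median -0.03, beside -0.01 over all genes, of which 12.5% passed). *Dntt*, the gene of terminal transferase, rose from 39.4 to 251 CPM (log2 fold change 2.63, adjusted P = 1.96e-06) and from 30.6 to 278 CPM (3.16, adjusted P = 5.06e-13). *Bcl11b*, the T-lineage commitment factor, fell from 76.3 to 13.6 CPM (-2.49, adjusted P = 1.39e-06) and from 55.1 to 2.95 CPM (-3.89, adjusted P = 2.28e-12). *Erg*, an ETS factor of progenitors, rose in the first experiment (2.16, adjusted P = 0.000134), and *Ccr9*, a thymus-homing receptor, fell from 534 to 26.9 CPM in the second (-4.25, adjusted P = 3.82e-16). With sgCbfb in Phase 1 cells 5 rose and 2 fell (median 0.15, beside 0.06 over all genes, of which 5.97% passed), among them *Dntt* (55.5 against 5.11 CPM, 3.27), *Rag1*, a recombinase gene (55.0 against 15.7 CPM, 1.73), and *Bcl11b* (37.5 against 438 CPM, -3.50).

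With Notch stimulation in sgControl cells 2 of these genes rose and 6 fell (median -0.34, beside -0.07 over all genes, of which 6.48% passed), with *Flt3* down from 273 to 36.1 CPM (-3.06), *Ccr9* from 989 to 131 CPM (-2.92) and *Dntt* from 39.4 to 5.11 CPM (-2.78). In sgCbfb cells 2 rose and 5 fell (median -0.40, beside -0.01, with 2.24% of all genes past the threshold). In sgCTCF LPs 5 rose and 1 fell (median 0.11, beside -0.02 and 10.3% of all genes), where *Foxo1*, a factor for lymphoid receptor genes, rose from 4.77 to 25.7 CPM (2.20, adjusted P = 4.71e-06) and *Pax5*, a B-lineage factor, from 8.58 to 21.98 CPM (1.27, adjusted P = 0.00640). In sgMed12 LPs 0 rose and 4 fell (median -0.26, beside -0.02 and 7.22% of all genes), with *Dntt* at 10.1 against 30.6 CPM (-1.49), *Flt3* at 176 against 276 CPM (-0.65) and *Mef2c*, a factor of lymphoid progenitors, at 623 against 842 CPM (-0.43). Of the LP groups of that experiment, sgCTCF had the highest and sgMed12 the lowest summed Id reads. These are transcript sums, and a part of the Id genes in the changes of the listed E protein targets was not tested.

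**Figure D5:**
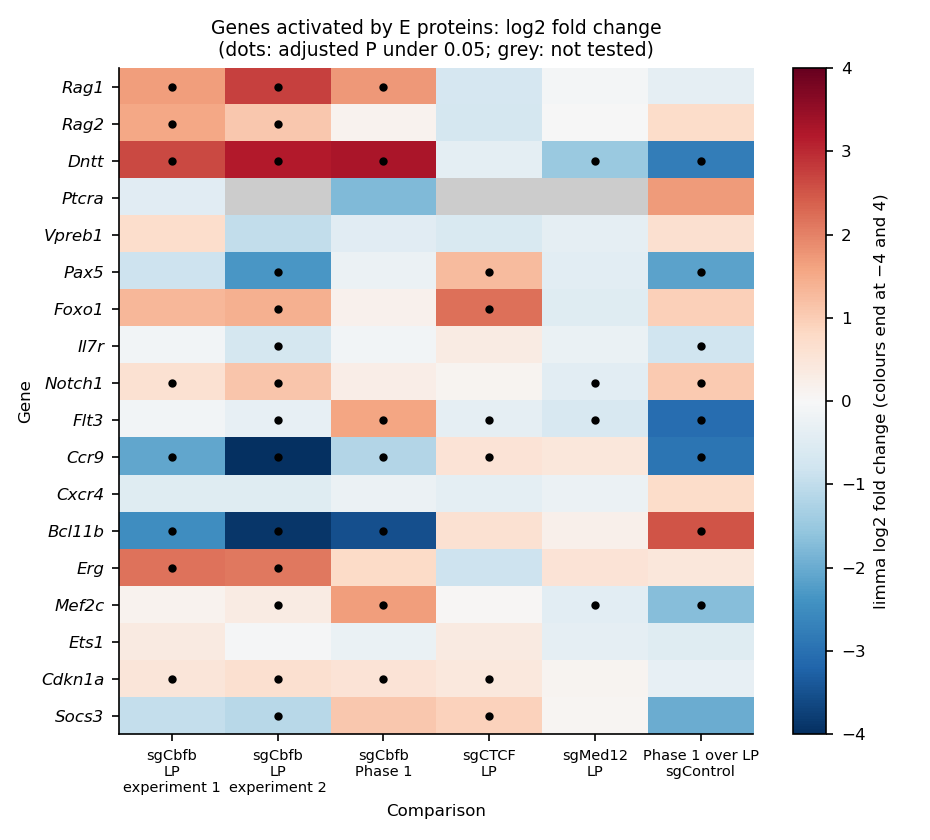
Limma log2 fold changes of the 18 tested genes known to be activated by E proteins (rows) in 6 comparisons (columns), red for higher and blue for lower in the group named first, with dots at an adjusted P under 0.05 and grey where a gene was not tested. In sgCbfb LPs *Dntt*, *Rag1* and *Erg* are red and *Bcl11b* and *Ccr9* blue in both experiments.

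Of 15 innate lymphoid genes, a program that depends on *Id2*, 11 were tested in each experiment. In sgCTCF LPs 5 rose and 0 fell (median 0.88, beside -0.02 over all genes, of which 10.3% passed), among them the cytokine receptor genes *Il18r1*, from 73.5 to 135 CPM (0.89, adjusted P = 0.00133), and *Il2rb*, from 42.7 to 77.2 CPM (0.88, adjusted P = 0.0221). In sgMed12 LPs 0 rose and 4 fell (median -0.13, beside -0.02 and 7.22% of all genes), with *Nfil3*, a factor of innate lymphoid precursors, at 7.63 CPM (-1.05, adjusted P = 0.0187), *Il2rb* at 20.8 CPM (-0.99, adjusted P = 0.0200) and *Il18r1* at 44.5 CPM (-0.71, adjusted P = 0.0191). With sgCbfb, 0 rose and 3 fell in LPs of the first experiment (median 0, beside 0 and 2.85% of all genes). In the other sgCbfb comparisons 1 rose and 4 fell in LPs of the second experiment (-0.31, beside -0.01 and 12.5%) and 0 rose and 4 fell in Phase 1 cells (-0.60, beside 0.06 and 5.97%). *Il2rb* was 0.367 against 42.7 CPM (-5.00, adjusted P = 1.08e-13) in LPs of the second. With Notch stimulation in sgControl cells, where *Id2* rose, 3 rose and 0 fell (median 0.15, beside -0.07 and 6.48% of all genes). Among those that rose were *Gata3*, from 33.2 to 141 CPM (2.07, adjusted P = 1.25e-07), and *Zbtb16* (2.08, adjusted P = 0.0176). *Gata3* is also one of the T progenitor markers used here, and the paper names it as an early Notch target. Whether *Id2* had a part in these rises was not tested. *Il2rb* was 39.1 CPM in LPs and 16.4 CPM in Phase 1 cells there (adjusted P = 0.287), and *Il18r1* 86.5 and 62.9 CPM (adjusted P = 0.447).

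Among the signals known to raise Id genes, 28 genes for BMP and TGF-β ligands, receptors and SMADs and 5 for EGR factors and their NAB corepressors were listed. Of the first, 19 were tested in the first experiment and 20 in the second. Limma called 0 in sgCbfb LPs of the first experiment (4 at an unadjusted value under 0.05, median 0.14, beside 0 and 2.85% of all genes), where *Id1* rose. In the second, 3 rose and 2 fell with sgCbfb (median 0.06, beside -0.01 and 12.5% of all genes), with *Tgfb1* (79.6 against 42.9 CPM, 0.88, adjusted P = 3.23e-05) and the SMAD corepressor gene *Ski* (43.7 against 23.7 CPM, 0.86, adjusted P = 0.000434) higher and the decoy receptor gene *Bambi* (15.01 against 24.8 CPM, -0.69, adjusted P = 0.0405) lower. With sgCTCF 6 rose and 0 fell (median 0.23, beside -0.02 and 10.3%), *Tgfbr2* (20.3 against 8.99 CPM, 1.10, adjusted P = 0.00402) and *Bambi* (45.3 CPM, 0.85, adjusted P = 0.0123) among them. With sgMed12 0 rose and 2 fell (median 0.07, beside -0.02 and 7.22%), *Smad3* (36.3 against 56.6 CPM, -0.63, adjusted P = 0.0155) and *Smad5* (108 against 145 CPM, -0.42, adjusted P = 0.0221). *Egr1*, an early response factor that acts on *Id3*, rose in sgCbfb LPs of the second experiment (22.7 against 3.70 CPM, 2.12, adjusted P = 0.000308) and was 3.99 CPM in sgCTCF LPs, where *Id3* was as high. In sgCbfb LPs of the first experiment *Egr1* did not pass (13.2 against 8.56 CPM, 0.63, adjusted P = 0.687). A part of *Egr1* or of the other listed signals in the changes of the Id genes was not tested.

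Markers of other cell types moved with the groups. The sum of 12 macrophage and myeloid genes was 148 to 184 CPM in sgControl and 629 to 729 CPM in sgCbfb LPs of the first experiment, and 144 to 164 and 804 to 961 CPM in the second, where *Id1* was also high. Of the 12, 3 of 10 tested rose in the first experiment, beside 2.85% of all genes past the threshold. In the second 6 of 11 rose, beside 12.5%, and none fell in either. *Elane* had 0 reads in sgCbfb LPs of both, while *Mrc1* reached 221 CPM (from 4.86) and 472 CPM (from 6.23). *F13a1* reached 190 CPM (from 11.2) and 194 CPM (from 6.71), so these genes made up much of the sums. In the first experiment *Cebpa* (4.35 against 5.22 CPM), *Ctss* (26.9 against 23.9 CPM) and *Itgam* (18.6 against 14.0 CPM) did not pass. A part of the myeloid genes in the rise of *Id1* was not tested. In such bulk samples a change in the number of cells of a type and one in RNA per cell cannot be told apart. Plasmacytoid dendritic cell genes, which *Tcf4* is known to activate, were lower in sum in sgCbfb LPs. The sum was 968 to 1065 CPM in sgControl and 301 to 348 CPM in sgCbfb LPs of experiment 1. In the second, where *Tcf4* was higher, it was 758 to 1056 and 320 to 662 CPM. Of 9 genes tested, 0 rose and 4 fell in experiment 1, beside 2.85% of all genes. In the second 2 rose and 5 fell, beside 12.5%. *Cox6a2* fell from 589 to 171 CPM and from 534 to 81.2 CPM, while *Irf7* rose from 3.44 to 63.3 CPM in the second. In the comparisons with sgControl LPs where *Tcf4* was lower, the sum was 541 to 885 CPM in Phase 1 sgControl cells. There 1 gene rose and 2 fell, beside 6.48% of all genes. In sgMed12 LPs the sum was 556 to 862 CPM, which overlapped sgControl, and 1 rose and 3 fell, beside 7.22%. A part of *Tcf4* in these changes was not tested. Markers of the Notch-induced T progenitor all rose with Notch stimulation in sgControl cells, 7 of 7 tested, beside 6.48% of all genes. They summed to 38.4 to 55.5 CPM in LPs and 814 to 961 CPM in Phase 1 cells, which matches the labels of these groups. Stromal genes summed to 2.27 to 63.0 CPM in all libraries, with *Col3a1*, *Dcn* and *Postn* at 0 in LPs of all groups. The 9 B-lineage genes summed to 150.4 to 411 CPM over all libraries. In sgCTCF LPs 2 of the 5 tested rose and 1 fell, beside 10.3% of all genes. *Blnk* (13.7 against 0.633 CPM, 3.14, adjusted P = 1.26e-06) and *Pax5* were those that rose.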

How the data were processed

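RNA from 24 samples was made into QuantSeq 3′ mRNA FWD libraries and read as single reads of 75 bases. Per the study's methods and the submitters' processing notes, reads were trimmed with fastp and aligned with STAR to mm10. The counter, annotation, tool versions and strand setting are not given in the sources used here. The authors deposited 1 table for each experiment, in CPM scaled to 1e6 reads on genes, although the tables are named for TPM. Every value was a whole multiple of a step within a tolerance of 0.05 reads, so whole reads were recovered for 100% of values. A last line without an identifier was left out (7e-05% of the sum).

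Genes that reached 1 CPM in 3 or more libraries entered limma 3.58.1 (R 4.3.3) on log2(CPM + 1), with trend-moderated variances, all 4 groups of an experiment in one fit, and Benjamini-Hochberg adjustment over all genes tested. A pseudocount of 1 understates the change of low genes. The experiments were never tested against each other. Replicates are separate samples per the labels and biological replicates per the methods, and their counts differed beyond sampling noise (chi-square per degree of freedom of at least 2.47). The fit was tested on simulated data, in which only genes with a mean level above those of *Id1* and *Id3* were changed. That test thus does not cover genes as low as these members. The counting intervals and floors cover counting error only.

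The members and gene lists were chosen with earlier results of these data known. Of each list, at most 3 genes per comparison were named, those past the threshold with the largest change and over 10 CPM in either group. Some genes that did not pass are given beside them, such as *Il2rb* and *Il18r1* under Notch stimulation. *Rag1* and *Ccr9*, named beside the plot of E protein targets for both experiments, were added after their values were seen. Positions came from GENCODE M21, where 55141 of 55487 identifiers matched. Alternatives were pseudocounts of 0.1 and 5, no filter, other scalings, a fit of the compared groups alone, a replicate block, edgeR 4.0.16 and DESeq2 1.42.0 on recovered reads, and leaving out each library.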

Additional observations from a re-analysis of the deposited data

How the results depend on the processing

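Among 1380 refits of single members, 1318 kept their side of the threshold, 37 lost a call and 21 gained one. None of the called changes turned its direction. Values that were not called could change sign. Those that did so by no more than the SE of the main fit are among the 1318, and 4 did so by more. The number of members called among 6 changed by more than 1.5 times in these cases. With sgCbfb in Phase 1 cells 1 was called, but 0 with a pseudocount of 0.1, without the filter or with only the groups compared in the fit, and 2 with edgeR, DESeq2 or the replicate block. For Notch stimulation 4 became 2 in sgControl cells with only the groups compared, and 0 became 1 in sgCbfb cells with DESeq2. The interaction went from 0 to 1 with edgeR and with DESeq2, and it could not be fitted on fewer groups. With sgMed12, 3 became 1 without the filter and 0 with only the groups compared. Smaller changes were from 3 to 2 (no filter) or 4 (only the groups compared) for sgCbfb LPs in experiment 2, 4 to 5 for sgCTCF against sgCbfb with only the groups compared, 3 to 4 for sgMed12 against sgCTCF with a pseudocount of 5, 3 to 4 for sgMed12 against sgCbfb with mitochondrial genes and *CT010467.1* left out or with the replicate block, and 3 to 2 for sgMed12 against sgControl with those genes left out. The cause was not tested. Leaving out 1 library gave 0 to 1 with sgCbfb in Phase 1 cells, 3 to 4 and 0 to 1 for Notch stimulation in sgControl and sgCbfb cells, 0 to 1 for the interaction, 2 to 4 for sgCbfb LPs in experiment 2, 1 to 3 with sgMed12 and 3 to 4 for each comparison between 2 targets, while sgCbfb in LPs of the first experiment stayed at 1 and sgCTCF at 2.

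Over all genes, calls moved by more than 1.5 times in these cases. With only the groups compared, 790 became 480 for sgCbfb in Phase 1 cells, 858 became 401 for Notch stimulation in sgControl cells, 2215 became 1356 for sgMed12 against sgCbfb and 952 became 24 for sgMed12 against sgControl, which also fell to 325 without the filter. Leaving out 1 library gave 187 to 2829 calls for sgMed12 against sgControl, the highest without sgMed12 replicate 2 and the lowest without sgMed12 replicate 3. It gave 243 (without LP sgCbfb replicate 1) to 657 (without Phase 1 sgControl replicate 3) in place of 377 for sgCbfb in LPs of the first experiment, and 181 (without Phase 1 sgCbfb replicate 2) to 581 (without Phase 1 sgControl replicate 3) in place of 297 for Notch stimulation in sgCbfb cells. The other counts were 523 and 526 without Phase 1 sgCbfb replicate 2 or 3 in place of 790, 559 and 549 without LP sgControl replicate 1 or 2 in place of 858, 107 to 111 for the interaction without LP sgControl replicate 2 or Phase 1 sgCbfb replicate 2 or 3 in place of 168, and 782 to 880 for sgCTCF without sgControl replicate 1 or 3 or sgCTCF replicate 1 or 2 in place of 1361. For sgMed12 against sgCTCF, 2635 became 1697, 4035 and 1649 without sgCTCF replicate 1, sgMed12 replicate 2 and sgMed12 replicate 3, and for sgMed12 against sgCbfb, 2215 became 3429 without sgMed12 replicate 2.

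Replicate numbers are shared by the groups. Deviations of same-numbered libraries correlated at -0.04 to 0.14 (median 0.04) in the first and -0.13 to 0.22 (median 0.07) in the second experiment. Libraries of unlike number correlated at -0.12 to 0.08 (median -0.02) and -0.22 to 0.14 (median -0.03). A weak pairing by number is thus possible, and the main fit does not model it. With the replicate block 2 member calls were gained, *Tcf4* with sgCbfb in Phase 1 cells (0.54, adjusted P = 0.0151) and *Id2* in sgMed12 against sgCbfb LPs (-0.35, adjusted P = 0.0354), and no other member call changed. Depth limits *Id3* in the first experiment and *Id1* in its LP sgControl libraries, which lie at or near 3 reads.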
